A study of Mus musculus with 48 samples.

Results

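The genes described here are 59 genes on both sides of Htt, the huntingtin gene, on mouse chromosome 5. They were taken by name from a list of genes within about 10 Mb of Htt, required to carry chromosome 5 in the deposited count table, and kept where their mean over the 48 mice was at least 0.5 CPM (counts scaled to the library's total). All 59 were found, and 58 were kept and tested among 20010 genes in all. The exception was Ucn, which encodes the stress peptide urocortin: its mean was 0.0552 CPM, its counts lay between 0 and 7 per mouse, and they summed to 52 in the 24 Q140 carriers and 70 in the 24 non-carriers. The kept members nearest to the minimum were Rbks at 1.08 CPM and Msantd1 at 1.66 CPM. On GRCm38, the members' starts ran from 3.84 Mb before the start of Htt, at lower coordinates, to 3.77 Mb after it. Of the 58 tested members 36 lay before Htt and 22 after it, and another 157 tested genes started within 10 Mb. All 59 members are annotated as protein coding.

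Cortical RNA of 48 C57BL/6 mice, each 6 months old, was sequenced in 6 genotypes. They were 8 Q140 and 7 wild type (WT) mice, 8 Q140 x Msh3+/- and 9 Msh3+/- mice, and 8 Q140 x Msh3-/- and 8 Msh3-/- mice, with females and males in each group. The Q140 allele is an expanded CAG repeat knocked in to Htt, heterozygous in every carrier per the labels, and the protein of Msh3 acts in DNA mismatch repair. Q140 carriers were compared with non-carriers in gene order, as the mean of the 3 Q140 effects within unaltered Msh3, Msh3+/- and Msh3-/-.

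Genes that lie close together on a chromosome are inherited together unless recombination separates them, so the neighbours of an altered locus travel with it through a cross. The stretch around Htt holds genes of unrelated function: enzymes and transporters, the glutamate vesicle zinc transporter, protein phosphatase subunits, regulators of G protein signalling, and the Evc and Evc2 pair of the primary cilium. In people, an expanded CAG repeat in HTT causes Huntington's disease, in which striatum and cortex degenerate.

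Library totals of the deposited counts lay between 35.9 and 64.5 M (mean 46.5 M). The summed level of 5 markers of excitatory cortical neurons was 1769 to 2034 CPM in carriers and 1671 to 2019 CPM in non-carriers. Htt RNA averaged 239.1 ± 8.50 CPM in carriers and 238.9 ± 8.83 CPM in non-carriers (SD, n = 24 each), with both alleles counted together. Msh3 RNA was higher, not lower, with the altered alleles: 105.3 to 125 CPM in Q140 x Msh3-/- and 99.1 to 120.3 in Msh3-/- mice, 61.2 to 73.7 in Q140 x Msh3+/- and 62.4 to 77.4 in Msh3+/- mice, and 21.8 to 25.9 in Q140 and 22.7 to 25.6 in WT mice. Msh3+/- and Msh3-/- are therefore read only as labels, for 1 and 2 altered alleles whose design the labels leave out. On the second principal component, with 6.7% of the variance, 3 males stood apart: Q140 x Msh3-/- male 4, Q140 male 1 and, among non-carriers, Msh3+/- male 2. All 6 markers of choroid plexus, a tissue of the brain ventricles, were below 0 in the carrier comparison, each with an unadjusted p under 0.05 and none called. Their summed level had a median of 6.45 CPM in carriers (3.61 to 13.8) and 5.87 in non-carriers (2.99 to 1191), and their part in the results was not tested. All 4 astrocyte markers were also below 0, 2 of them at an unadjusted p under 0.05 and none called. Their summed level had a median of 1412 CPM in carriers (1297 to 1517) and 1484 CPM in non-carriers (1331 to 1622), and their part was not tested either.

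At a gene next to the members, 4 libraries went against their label. Abhd1, which is no member but follows Cgref1 and overlaps Preb, had 5.23 to 7.66 CPM in 20 of the 24 carriers and 2.15 to 3.61 CPM in the 24 non-carriers. The remaining 4 carriers had 3.63, 2.89 and 2.62 CPM (Q140 x Msh3-/- females 1, 3 and 4) and 2.89 CPM (Q140 x Msh3+/- male 2), beside the non-carriers. Gm2420, another gene of the stretch, had counts of 1 to 3 in these same 4 libraries and of 4 in Q140 x Msh3-/- male 4, whose Abhd1 level was that of the carriers. It had counts of 13 to 32 in the other 19 carriers and of 0 to 12 in the 24 non-carriers. Whether the 4 mice carry the Q140 allele was not tested, and Htt counts, which pool both alleles, do not show it. They are kept as the libraries labelled Q140, and the counts of each Q140 comparison are also given without them. Leaving them out was chosen after the data were seen. They were picked by their Abhd1 level, so a rise of Abhd1 without them is fixed in part by that choice.

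A gene counts as called where the p of edgeR's quasi-likelihood test, adjusted by Benjamini and Hochberg's method over all 20010 genes, is under 0.05. In Q140 carriers against non-carriers 0 of the 58 members were called, beside 7 of all 20010 genes (0.035%) and 4 of the 157 other genes within 10 Mb. At an unadjusted p under 0.05 there were 7 members (12.1%), beside 17 of the 157 other genes (10.8%) and 1127 of all genes (5.63%). With DESeq2 0 members were called, and with limma, voom and sample quality weights 1 was called, Khk. The members' log2 fold changes ran from -0.076 for Slc30a3 to 0.15 for Khk, with 26 above 0 and 32 below. Their median absolute value was 0.018, with 0.051 for the other genes of the stretch and 0.029 for all genes. The median standard errors also differed, at 0.026, 0.07 and 0.041 for those same sets.

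The 95% confidence interval of the carrier change lay within 1.2-fold in either direction for all 58 members, and within 1.1-fold for 49. The median distance from the estimate to the end of its interval was 0.052 on the log2 scale, and the widest was 0.168, for Rbks (ribokinase), which has about 1 CPM. Without the 4 libraries 0 of 58 members were called and 6 had an unadjusted p under 0.05, beside 4 of 20268 genes called (0.0197%) and 850 at an unadjusted p under 0.05 (4.19%). Those 4 called genes all lay within 10 Mb of Htt, and Abhd1, by which the libraries were picked, was among them.

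**Figure D1:**
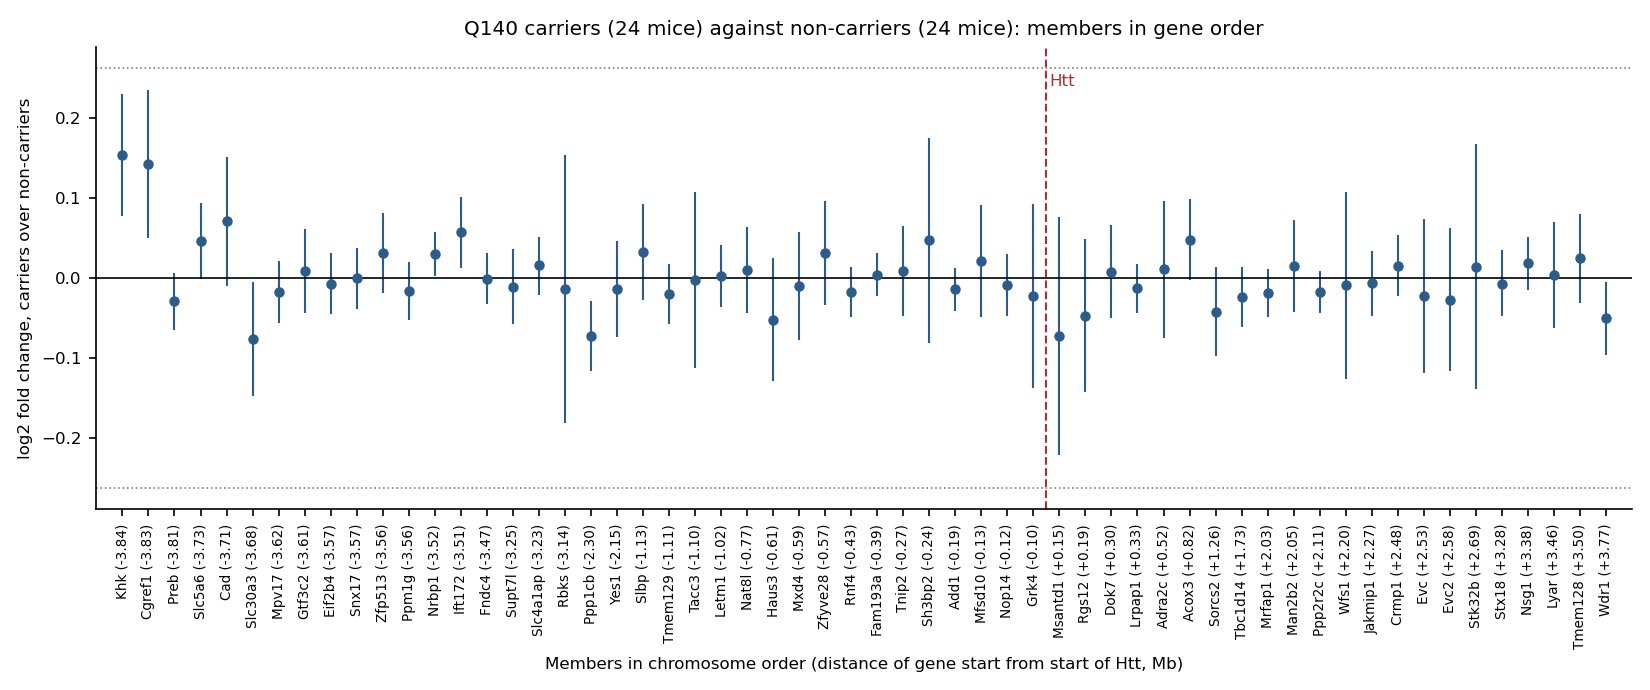
Log2 fold change of each tested member in Q140 carriers (24 mice) over non-carriers (24 mice), in chromosome order, with the distance of each gene's start from that of Htt in Mb. Points are edgeR estimates, lines are 95% intervals, the dashed line marks Htt and the dotted lines mark 1.2-fold; all 58 intervals stay between the dotted lines, and the 2 highest points, Khk and Cgref1, are the 2 members farthest before Htt.

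By gene order, 6 of the 7 members with an unadjusted p under 0.05 started between 2 and 5 Mb before Htt, a stretch with 20 tested members. Wdr1, at 3.77 Mb after Htt and the last member, was the other. Among the 24 members within 2 Mb of Htt on either side there were 0, with changes from -0.072 to 0.048. Over all 20010 genes the share was 5.63%, and 0 of 24 is not far from that share. The other tested genes showed 10 of 45 at 2 to 5 Mb before Htt, and 2 of 39 within 2 Mb. They showed 0 of 11 at 2 to 5 Mb after Htt and 5 of 62 at 5 to 10 Mb on either side. The 4 called neighbours also lay at 2 to 5 Mb before Htt. Wdr1, without the 4 libraries, no longer had an unadjusted p under 0.05, and all 6 members that did (Ppp1cb, Khk, Cgref1, Slc30a3, Nrbp1 and Ift172) lay at 2 to 5 Mb before Htt, with 0 of the 24 within 2 Mb. The other tested genes then showed 12 of 45 and 3 of 39 in those stretches, beside 4.19% of all genes. Abhd1, by which the 4 libraries were picked, is itself one of the called neighbours at 2 to 5 Mb before Htt. Counts in that stretch without these libraries are thus fixed in part by the choice and are no separate support. In the plot of changes by gene order the points leave 0 mainly at the left end, where Khk and Cgref1 stand next to each other.

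Khk encodes ketohexokinase, the enzyme that phosphorylates fructose (ENSMUSG00000029162, chromosome 5, 30921431 to 30931248, plus strand). Its lowest, median and highest levels were 5.77, 7.19 and 7.67 CPM in Q140 mice and 4.80, 5.87 and 6.52 CPM in WT mice. They were 6.21, 7.12 and 7.78 CPM in Q140 x Msh3+/- mice and 5.76, 6.17 and 7.41 CPM in Msh3+/- mice. They were 5.53, 6.75 and 8.06 CPM in Q140 x Msh3-/- mice and 5.86, 6.46 and 7.36 CPM in Msh3-/- mice. In each of the 3 pairs the carriers had the higher median and the ranges overlapped. Over all carriers Khk averaged 6.96 ± 0.629 CPM, against 6.28 ± 0.583 CPM in non-carriers (SD, n = 24 each). The log2 fold change was 0.15 ± 0.038 (SE; 95% interval 0.078 to 0.23), with an edgeR adjusted p of 0.207. Over 12 alternatives the adjusted p ran from 0.0456, with limma and sample quality weights, to 0.509, and leaving out each mouse in turn gave 0.0479, without Q140 x Msh3-/- male 4, to 0.367. The 4 libraries low in Abhd1 had 6.41 to 7.16 CPM of Khk, and without them the change was 0.16 ± 0.041 with an edgeR adjusted p of 0.509.

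Cgref1 is the next member, on the opposite strand, and encodes a calcium-binding protein with EF hands (ENSMUSG00000029161, 30933143 to 30945591, minus strand). It had a lowest, median and highest level of 9.15, 10.6 and 12.3 CPM in Q140 mice and 6.89, 9.57 and 11.7 CPM in WT mice. It had 8.23, 9.99 and 10.9 CPM in Q140 x Msh3+/- mice and 6.60, 8.24 and 12.2 CPM in Msh3+/- mice, but 7.84, 9.35 and 12.3 CPM in Q140 x Msh3-/- mice and 8.44, 9.92 and 11.5 CPM in Msh3-/- mice. The carriers' median was thus higher in 2 of the 3 pairs and lower in the third, with overlap in all 3. The carrier change was 0.14 ± 0.046 on the log2 scale, with an edgeR adjusted p of 0.591. All 4 libraries low in Abhd1 had 7.84 to 8.84 CPM of Cgref1, where the other 20 carriers had a median of 10.5 and the non-carriers of 9.02. These medians pool the Msh3 genotypes, and 3 of the 4 are Q140 x Msh3-/-. Q140 x Msh3-/- female 3 and Q140 x Msh3+/- male 2 were the lowest of their groups, at 7.84 and 8.23 CPM. Without the 4 libraries the change was 0.17 ± 0.047, with an edgeR adjusted p of 0.532.

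Ppp1cb encodes the beta catalytic subunit of protein phosphatase PP1, which dephosphorylates myosin light chain among other targets (ENSMUSG00000014956, 32458843 to 32517433, plus strand). Its lowest, median and highest levels were 230.7, 239.6 and 251.1 CPM in Q140 mice and 247, 257.6 and 273.8 CPM in WT mice. They were 226.8, 247.3 and 282 CPM in Q140 x Msh3+/- mice and 258.2, 266.5 and 298.4 CPM in Msh3+/- mice. They were 241, 260.6 and 286.5 CPM in Q140 x Msh3-/- mice and 243.3, 260.7 and 279.9 CPM in Msh3-/- mice. The first pair overlapped by a few CPM only, while the last pair had nearly equal medians. The carrier change was -0.073 ± 0.022, with an edgeR adjusted p of 0.423. The 4 libraries low in Abhd1 had 263.5 to 285.4 CPM of Ppp1cb, at or above the non-carriers' median of 263.4. The other 20 carriers, of all Msh3 genotypes, had a median of 242.5. But 3 of the 4 are Q140 x Msh3-/-, whose lowest (241) and highest (286.5 CPM) mice were not among the 4. Those 3 thus lie within their group's range, and Msh3 genotype and Abhd1 level are not separated here. Without the 4 libraries the change was -0.095 ± 0.021, with an edgeR adjusted p of 0.148.

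**Figure D2:**
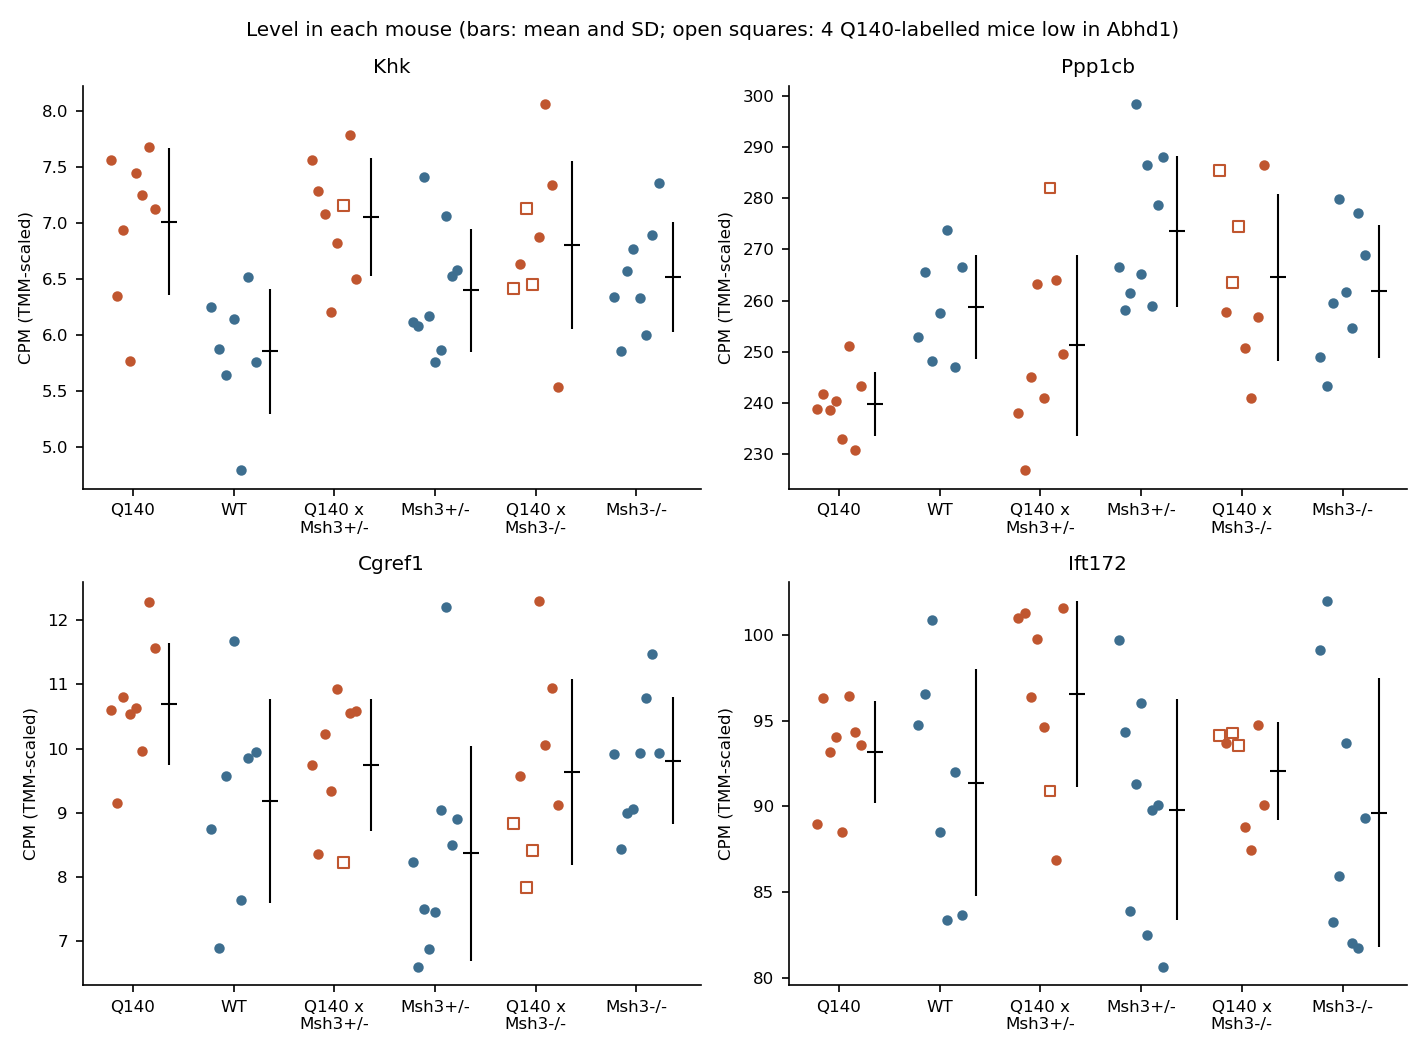
TMM-scaled CPM of Khk, Ppp1cb, Cgref1 and Ift172 in each mouse, with each Q140 group left of its non-carriers. Points are mice, bars are means with SD, and open squares are the 4 libraries labelled Q140 that had the non-carriers' level of Abhd1. These squares lie at 263.5 to 285.4 CPM for Ppp1cb and at 7.84 to 8.84 CPM for Cgref1. That is away from most other carriers with the Msh3 genotypes pooled. The Q140 x Msh3-/- squares for Ppp1cb lie within the range of the other mice of their group.

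The promoters of Khk, Ppp1cb and Cgref1 are shown because these 3 members had the smallest p in the carrier comparison. They are from RefSeq on GRCm38.p6, in which 56 of the 59 members had a promoter, and each holds 250 bases before a transcript start and 50 after it, written from 5′ to 3′ on the gene's strand. Capitals mark every match, on either strand, to TATAAA (the TATA box), to the CCAAT box, to GGGCGG (the GC box) or to TGACG (a half-site of the cyclic AMP response element). No marked motif overlaps another. The windows are chr5:30921309-30921608 on the plus strand for Khk, chr5:32458720-32459019 on the plus strand for Ppp1cb and chr5:30945431-30945730 on the minus strand for Cgref1.
Khk: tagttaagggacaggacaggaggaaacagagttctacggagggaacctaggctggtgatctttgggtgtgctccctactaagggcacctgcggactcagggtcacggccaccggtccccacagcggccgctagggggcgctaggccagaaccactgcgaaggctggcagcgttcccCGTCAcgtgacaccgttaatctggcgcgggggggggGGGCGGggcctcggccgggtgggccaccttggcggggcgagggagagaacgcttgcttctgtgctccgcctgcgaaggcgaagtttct
Ppp1cb: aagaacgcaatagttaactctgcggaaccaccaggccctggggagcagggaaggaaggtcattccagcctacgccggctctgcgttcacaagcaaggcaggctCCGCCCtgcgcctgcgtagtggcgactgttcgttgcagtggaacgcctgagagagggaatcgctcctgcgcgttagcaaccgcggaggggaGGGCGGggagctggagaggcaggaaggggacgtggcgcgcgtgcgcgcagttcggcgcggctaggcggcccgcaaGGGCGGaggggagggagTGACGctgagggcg
Cgref1: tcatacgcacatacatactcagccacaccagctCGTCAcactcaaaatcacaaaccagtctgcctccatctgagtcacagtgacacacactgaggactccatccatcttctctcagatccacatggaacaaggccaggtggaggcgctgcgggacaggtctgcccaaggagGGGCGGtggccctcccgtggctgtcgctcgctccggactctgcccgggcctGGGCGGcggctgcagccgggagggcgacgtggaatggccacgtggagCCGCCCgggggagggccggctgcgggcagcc
All 3 windows had more CpG than the median promoter, with 23 CpG in Khk, 31 in Ppp1cb and 20 in Cgref1. The median was 7 over 32851 promoters of the same length. As few CpG or fewer were found in 80.0%, 90.5% and 75.2% of these promoters, in that order. Cgref1 had 2 promoters in RefSeq, and the one nearer to its annotated start is shown. The GC box occurred 1 time in Khk and 3 times in each of Ppp1cb and Cgref1, and 35.7% of all promoters hold it. The half-site TGACG occurred 1 time in each, and 20.8% of all promoters hold it. Neither TATAAA (in 13.6% of all promoters) nor CCAAT (in 37.4%) was found in these windows. A match describes the letters only.

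Among the 13 members that serve transport, metabolism or mitochondria, 9 changes were above 0 and 4 below. Of them 0 were called and 2, Khk and Slc30a3, had an unadjusted p under 0.05. Over all 20010 genes 9953 changes were above 0 and 10057 below, with 7 called (0.035%). An unadjusted p under 0.05 was found for 1127 of all genes (5.63%). This list and those that follow are short, and no list was tested as a set. Slc30a3 encodes ZnT3, the transporter that loads zinc into glutamate vesicles. Its lowest, median and highest levels were 98.7, 118.8 and 141 CPM in carriers and 106.7, 124.7 and 144 CPM in non-carriers. These ranges overlapped over most of their length, and the change was -0.076 ± 0.035 with an edgeR adjusted p of 0.84. It lay below 0 in each of the 3 pairs, at -0.087 in Q140 against WT, -0.048 in Q140 x Msh3+/- against Msh3+/- and -0.093 in Q140 x Msh3-/- against Msh3-/-. Slc30a3 was named for its small p in the mean of these 3, so the shared sign is in part fixed by that choice. Without the 4 libraries, which had 122.3 to 136.1 CPM, the carrier change was -0.11 ± 0.037.

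Slc5a6 encodes the sodium-dependent vitamin transporter for biotin and pantothenate. It had 18.2, 20.9 and 22.9 CPM in carriers and 17.8, 20.5 and 22.7 CPM in non-carriers (lowest, median and highest), a change of 0.047 ± 0.024 with an edgeR adjusted p of 0.864. Cad encodes the enzyme of the first steps of pyrimidine synthesis. It had 19.1, 22.7 and 26.6 CPM in carriers and 18.2, 21.8 and 26.3 CPM in non-carriers, a change of 0.071 ± 0.040 (SE). Acox3, a peroxisomal acyl-CoA oxidase and the only one of the 10 members with the smallest p that starts within 2 Mb of Htt, had 39.6, 51 and 57.1 CPM in carriers and 42.9, 50.1 and 52 CPM in non-carriers, a change of 0.048 ± 0.025. For each of these 3 genes the carriers spanned nearly the whole range of the non-carriers. Nat8l, the synthase of N-acetylaspartate in neurons, was among the most abundant members and had 412.1, 527.9 and 584.5 CPM in carriers and 435.8, 522.8 and 608.3 CPM in non-carriers. Its change was 0.010 ± 0.027, with a 95% interval of -0.044 to 0.064. Wfs1, the Wolfram syndrome gene of the endoplasmic reticulum, had a change of -0.009 ± 0.058, and Letm1, a mitochondrial inner membrane protein, one of 0.003 ± 0.019.

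Among the 14 members of transcription, RNA and translation, 5 changes were above 0 and 9 below. Of them 0 were called, beside 0.035% of all genes, and 0 had an unadjusted p under 0.05, beside 5.63%. The members' changes ran from -0.072 for Msantd1 to 0.033 for Slbp, the histone mRNA stem-loop binding protein. Nop14, a ribosome biogenesis factor whose start is 0.12 Mb before that of Htt, had 23.1, 24.7 and 27.1 CPM in carriers and 22.5, 25.4 and 27.5 CPM in non-carriers (lowest, median and highest). Its change was -0.009 ± 0.019. Msantd1, which starts 0.15 Mb after Htt and overlaps its end by 4523 bases on the same strand, had 1.09, 1.64 and 2.10 CPM in carriers and 1.11, 1.66 and 2.20 CPM in non-carriers, a change of -0.072 ± 0.074. These bases are counted over whole gene spans, introns included, and reads from them could belong to either gene. Eif2b4, a subunit of the exchange factor of translation initiation, had an estimate of -0.007 ± 0.019, and Rnf4, a SUMO-targeted ubiquitin ligase, one of -0.018 ± 0.016.

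Of the 12 members of kinase, phosphatase and receptor signalling, 11 were tested, with 6 changes above 0 and 5 below. Among them 0 were called, beside 0.035% of all genes. The 2 at an unadjusted p under 0.05 were Ppp1cb and Nrbp1, beside 5.63% of all genes. Nrbp1, a pseudokinase, had 64, 67 and 70.4 CPM in carriers and 62.2, 66 and 69.1 CPM in non-carriers (lowest, median and highest). Its change was 0.030 ± 0.014, one of the narrowest intervals of the set (0.003 to 0.058), with an edgeR adjusted p of 0.823. Grk4, a G protein-coupled receptor kinase and the nearest member before Htt, had 2.15, 2.82 and 3.46 CPM in carriers and 2.27, 2.83 and 3.84 CPM in non-carriers, a change of -0.022 ± 0.057. Rgs12, a GTPase activator for G protein alpha subunits that starts 0.19 Mb after Htt, had 27.3, 31.5 and 43.2 CPM in carriers and 27.9, 32.7 and 44.8 CPM in non-carriers, a change of -0.047 ± 0.048. The 2 members nearest to Htt on each side therefore had intervals that include 0. Sh3bp2, an adaptor protein at 1.78 to 3.34 CPM in carriers and 1.64 to 3.15 CPM in non-carriers, had a change of 0.048 ± 0.064. Ppp2r2c, a brain-enriched regulatory subunit of phosphatase PP2A, had 656.3, 699 and 727.6 CPM in carriers and 659.7, 707.5 and 737.4 CPM in non-carriers. Its change was -0.018 ± 0.013, with a 95% interval of -0.044 to 0.009.

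Of the 7 members of cilium, cytoskeleton and mitosis, 1 change was above 0 and 6 were below, beside 9953 above and 10057 below over all genes. This short list was not tested as a set. Among its members 0 were called, beside 0.035% of all genes. The 2 at an unadjusted p under 0.05 were Ift172 and Wdr1, beside 5.63% of all genes. Ift172, a subunit of the intraflagellar transport complex that builds cilia, had 86.9, 94.1 and 101.6 CPM in carriers and 80.6, 90 and 102 CPM in non-carriers (lowest, median and highest). The change was 0.058 ± 0.022 with an edgeR adjusted p of 0.752, and the lowest mice were non-carriers. Wdr1, which promotes actin filament disassembly with cofilin, had 104.2, 117.2 and 136.2 CPM in carriers and 108.7, 121.5 and 136.7 CPM in non-carriers. Its change was -0.050 ± 0.023 with an edgeR adjusted p of 0.823, and without the 4 libraries, which had 104.2 to 116.7 CPM, it was -0.036 ± 0.023. Evc and Evc2, partners in a complex at the base of the cilium, had changes of -0.023 ± 0.048 and -0.027 ± 0.045. Add1, the cytoskeletal protein adducin 1, had -0.014 ± 0.013.

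Among the 13 members of membrane traffic and neuronal proteins, 5 changes were above 0 and 8 below. Of them 0 were called, beside 0.035% of all genes, and 1, Cgref1, had an unadjusted p under 0.05, beside 5.63%. Apart from Cgref1 the members' changes lay between -0.042, for the sortilin family receptor Sorcs2, and 0.031, for Zfyve28. Crmp1, a collapsin response mediator protein of axon guidance, had 0.015 ± 0.019, and Nsg1, a neuronal endosomal protein, 0.019 ± 0.017. Snx17, a sorting nexin of endosomal recycling, had a 95% interval of -0.039 to 0.038.

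**Figure D3:**
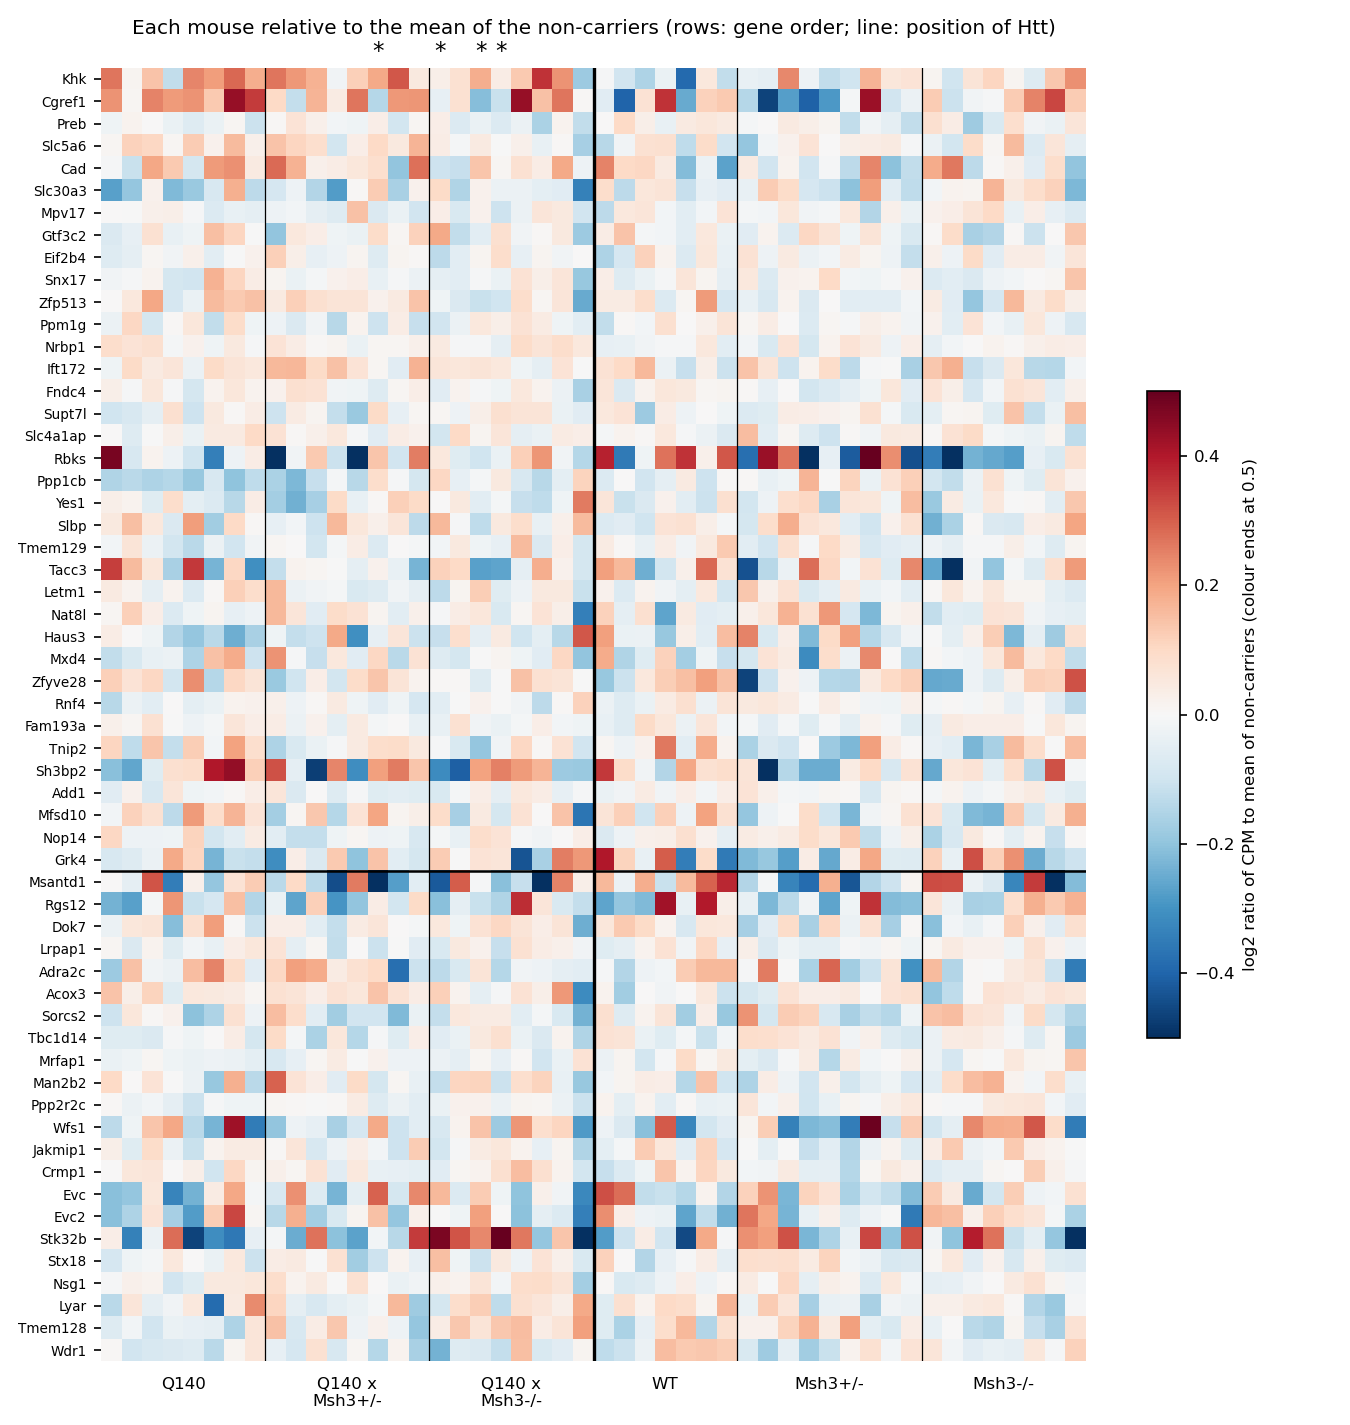
Log2 ratio of each mouse's CPM to the mean of the non-carriers, for the 58 tested members in chromosome order (rows) and the 48 mice (columns, carriers left of non-carriers, thin lines between genotypes). Asterisks mark the 4 libraries labelled Q140 that had the non-carriers' level of Abhd1, and the horizontal line marks Htt; apart from Khk at the top and Ppp1cb, few rows differ between the left and right sides, and low members such as Rbks, Stk32b and Msantd1 vary most between mice.

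Levels per gene length, as the deposited FPKM values give them, differed widely within the set. Ppp2r2c had the highest mean over the 48 mice, 157.9 FPKM, followed by Nat8l at 78.6 FPKM and Mrfap1, a nuclear protein that binds MRG family members, at 78.5 FPKM. Nsg1 had 58.6, Add1 46.7 and Slc30a3 42.9 FPKM. The 5 members lowest per length were Msantd1 at 0.57, Sh3bp2 at 0.58, Grk4 at 0.60, Stk32b at 0.62 and Rbks at 0.73 FPKM. Ppp2r2c had a mean of 157.2 FPKM in carriers and 158.7 FPKM in non-carriers, and Msantd1 one of 0.56 FPKM in carriers and 0.58 FPKM in non-carriers. The coefficient of variation of CPM over the 48 mice was 2.79% for Ppp2r2c, 2.83% for Add1 and Fam193a and 3.01% for Nrbp1. At the other end it was 20.6% for Rbks and 19.9% for Stk32b, both of low level, but Wfs1 reached 14.7% at 24.2 FPKM.

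**Figure D4:**
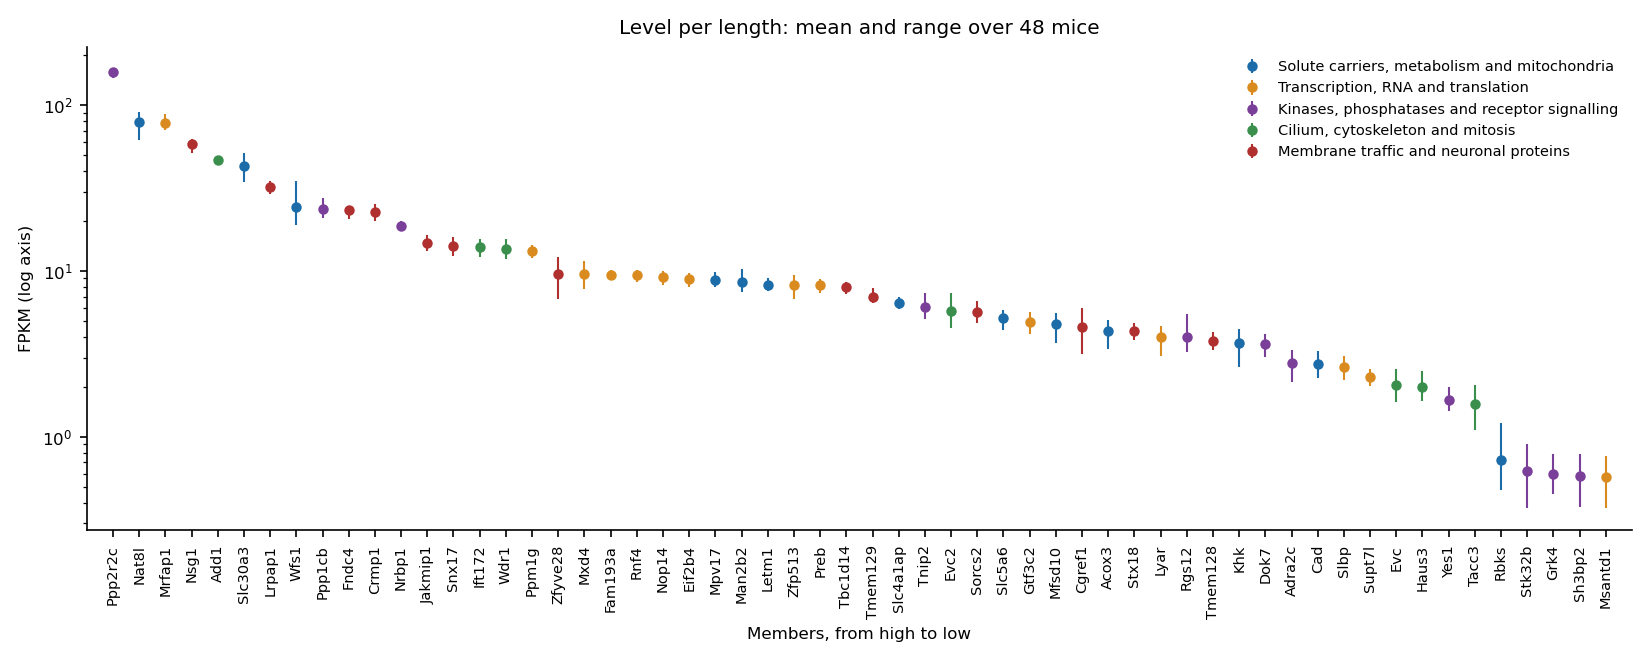
Mean FPKM (log axis) of each tested member over the 48 mice, ordered from high to low and coloured by role, with lines from the lowest to the highest mouse. Ppp2r2c stands highest at 157.9 FPKM, and the 5 lowest members lie under 1 FPKM.

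The 3 Q140 comparisons within an Msh3 genotype share no mouse. In Q140 against WT 0 members were called, beside 2 of all genes (0.01%), and 7 had an unadjusted p under 0.05, beside 1096 genes (5.48%). In Q140 x Msh3+/- against Msh3+/- 0 were called, beside 3 of all genes (0.015%), and 8 had an unadjusted p under 0.05, beside 1240 genes (6.2%). In Q140 x Msh3-/- against Msh3-/- 0 were called, as were 0 of all genes (0.0%), and 1 had an unadjusted p under 0.05, beside 1361 genes (6.8%). DESeq2 and limma called 0 members in each of these 3. Again 0 members were called in each without the 4 libraries. In Q140 against WT 3 of 20268 genes were then called (0.0148%), with 7 members and 1052 genes at an unadjusted p under 0.05 (5.19%). In Q140 x Msh3+/- against Msh3+/- 5 genes were called (0.0247%), with 6 members and 1061 genes at an unadjusted p under 0.05 (5.23%). In Q140 x Msh3-/- against Msh3-/-, which held 3 of the 4, 2 genes were called (0.00987%), with 2 members, Tmem128 and Slc30a3, and 969 genes at an unadjusted p under 0.05 (4.78%). Those 2 genes were the neighbours Abhd1 (edgeR adjusted p = 1.59e-10) and Gm2420 (4.45e-05). With all 48 mice their edgeR adjusted p was 0.0938 and 0.233. The libraries left out were picked by their low Abhd1, and Gm2420 was low in them too, so these 2 calls are no separate support. With all 48 mice the intervals are wider than in the pooled comparison. They lay within 1.2-fold for 49 of the 58 members in Q140 against WT. The number was 51 in Q140 x Msh3+/- against Msh3+/- and 53 in Q140 x Msh3-/- against Msh3-/-.

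For Khk the estimate was 0.26 ± 0.068 in Q140 against WT, with an edgeR adjusted p of 0.555. It was 0.14 ± 0.063 for Q140 x Msh3+/- against Msh3+/- and 0.065 ± 0.065 for Q140 x Msh3-/- against Msh3-/-. Cgref1 had 0.24 ± 0.082, 0.22 ± 0.078 and -0.027 ± 0.080 in those comparisons, and Ppp1cb had -0.11 ± 0.038, -0.12 ± 0.036 and 0.015 ± 0.037. Without the 4 libraries, 3 of which are Q140 x Msh3-/-, the last of these was -0.029 ± 0.039 for Ppp1cb and 0.021 ± 0.089 for Cgref1. With or without them both estimates lay within 1 SE of 0. Tmem128, a transmembrane protein 3.50 Mb after Htt, was the one member with an unadjusted p under 0.05 in Q140 x Msh3-/- against Msh3-/-. It had 14, 14.6 and 15.7 CPM in Q140 x Msh3-/- mice and 12.2, 12.9 and 14.3 CPM in Msh3-/- mice (lowest, median and highest). The ranges overlapped only at their ends, and the change was 0.17 ± 0.048 with an edgeR adjusted p of 0.671. In the other pairs its change was -0.041 in Q140 against WT and -0.052 in Q140 x Msh3+/- against Msh3+/-.

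**Figure D5:**
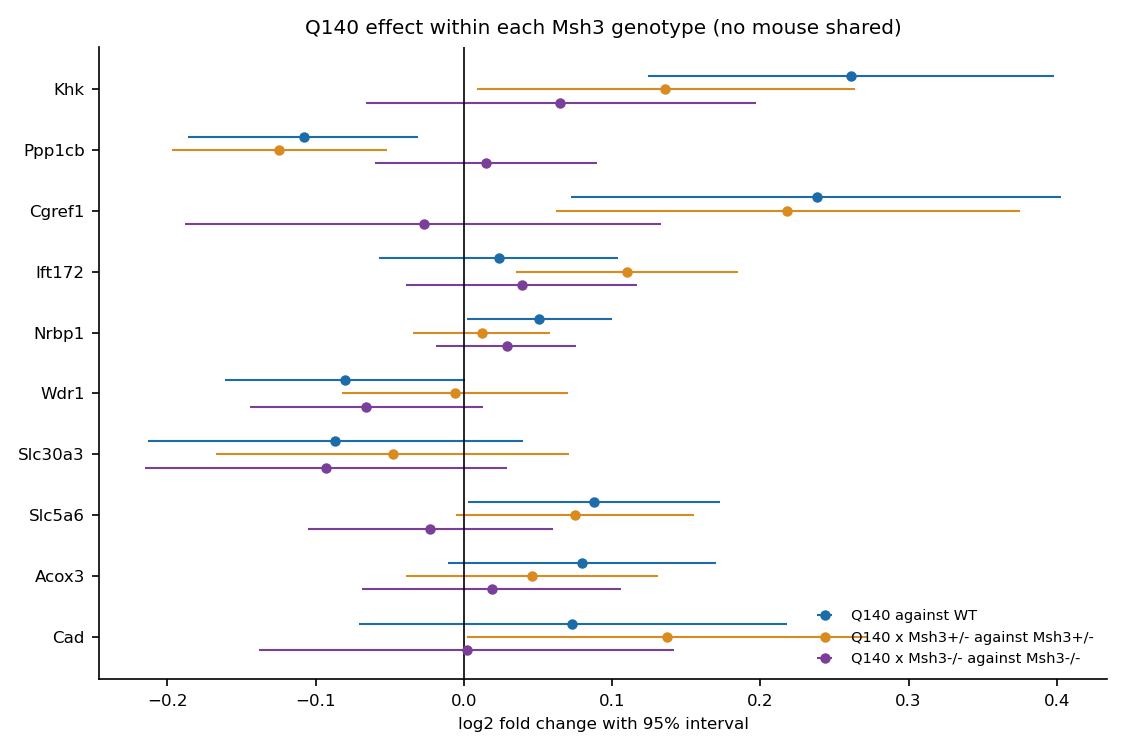
Log2 fold change with 95% interval of the 10 members with the smallest p in the carrier comparison, in Q140 against WT, Q140 x Msh3+/- against Msh3+/- and Q140 x Msh3-/- against Msh3-/-. Khk lies above 0 in all 3, at 0.26, 0.14 and 0.065, whereas Cgref1 and Ppp1cb lie away from 0 in the first 2 and near 0 in the third. The 10 were picked by the mean of these 3 effects, so a shared sign is in part fixed by that choice.

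The differences between these Q140 effects were tested directly. For the effect in Msh3+/- minus that with unaltered Msh3, 0 members were called, as were 0 of all genes (0.0%), with 1 member, Preb, and 1286 genes at an unadjusted p under 0.05 (6.43%). For the effect in Msh3-/- minus that with unaltered Msh3, 0 members and 0 of all genes (0.0%) were called, with 4 members and 1070 genes at an unadjusted p under 0.05 (5.35%). The 4 were Tmem128 (0.21 ± 0.068), Cgref1 (-0.27 ± 0.114), Ppp1cb (0.12 ± 0.053) and Khk (-0.20 ± 0.094), each with an edgeR adjusted p of 0.922. In either difference 0 members and 0 of all genes (0.0%) were called without the 4 libraries. For Msh3+/- 0 members then had an unadjusted p under 0.05, Preb included, beside 1212 genes (5.98%). For Msh3-/- there were 5, beside 926 genes (4.57%): Tmem128 at 0.22 ± 0.077, and Slc5a6, Lyar, Tmem129 and Haus3, which were not among the 4. Cgref1 (-0.22 ± 0.12), Ppp1cb (0.078 ± 0.053) and Khk (-0.20 ± 0.105) no longer had an unadjusted p under 0.05. Over the 3 comparisons 11 members were above 0 each time and 8 below 0 each time, 32.8% of the set beside 23.3% of all genes. Khk, Cad, Ift172, Nrbp1 and Acox3 were among the 11, and Slc30a3, Wdr1 and Rgs12 among the 8. All of these but Rgs12 were named for a small p in the carrier comparison, which is the mean of the same 3 effects. Their shared sign is thus in part fixed by that choice, and Cgref1, Ppp1cb and Slc5a6, also named for it, shared none. Without the 4 libraries the counts were 12 above and 8 below, 34.5% beside 21.6% of all genes; 16 members, Wdr1 not among them, had the same sign each time in both sets of libraries.

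Msh3 lies on chromosome 13, so the altered Msh3 alleles give a comparison at a locus away from the members. With 1 altered allele against 0, 0 members were called, beside 4 of all genes (0.02%), with 5 members and 1642 genes at an unadjusted p under 0.05 (8.21%). With 2 altered alleles against 0, 0 members were called, beside 17 of all genes (0.085%), with 3 members and 1855 genes at an unadjusted p under 0.05 (9.27%). Ppp1cb had the smallest p of the members in both, at 0.075 ± 0.026 (edgeR adjusted p = 0.485) and 0.080 ± 0.027 (0.308). Both comparisons subtract the same WT and Q140 mice, so they are not independent. The 4 libraries low in Abhd1, at 263.5 to 285.4 CPM of Ppp1cb, are all in groups with altered Msh3. The sex difference, the Q140 effect in males minus the effect in females, gave 0 called members and 0 called genes (0.0%), with 4 members and 897 genes at an unadjusted p under 0.05 (4.48%). The largest of the 4 was Evc2 at 0.18 ± 0.086, with an edgeR adjusted p of 0.986. DESeq2 and limma called 0 members in each of these 3 comparisons, and so did edgeR without the 4 libraries.

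The 4 called genes of the stretch are interleaved with the members, and 3 of them overlap a member on the opposite strand. Shared bases are counted over whole gene spans, introns included, and overlap of exons was not measured. Abhd1 rose by 1.03 ± 0.084 on the log2 scale in carriers (edgeR adjusted p = 4.71e-12) and shares 4239 bases with Preb, which encodes a regulator of prolactin gene transcription and of vesicle export from the endoplasmic reticulum. Preb had 53.6, 58.9 and 62.7 CPM in carriers and 52.9, 60.2 and 64.1 CPM in non-carriers (lowest, median and highest), a change of -0.029 ± 0.018. The ranges of Preb overlapped almost fully, while those of Abhd1 did so only through the 4 libraries. Atraid fell by 0.197 (SE 0.034; edgeR adjusted p = 0.00416), to 30.6 ± 2.96 CPM in carriers against 35 ± 2.57 CPM in non-carriers, and shares 613 bases with Slc5a6. Mrpl33, a protein of the large mitochondrial ribosomal subunit, rose by 0.19 ± 0.038 (edgeR adjusted p = 0.0257), to 10.9 ± 1.09 CPM in carriers against 9.54 ± 0.721 CPM in non-carriers. It shares 39946 bases with Rbks, which had 0.722, 1.07 and 1.51 CPM in carriers and 0.713, 1.06 and 1.77 CPM in non-carriers and a change of -0.014 ± 0.084. The fourth, Gm2420, had 0.371 ± 0.188 CPM in carriers and 0.0558 ± 0.053 CPM in non-carriers, a rise of 2.73 ± 0.279 (edgeR adjusted p = 6.05e-09). The library kit is stranded per the labels, but how strand was used in counting is not given in the sources used here, so reads of these overlapping pairs could have been shared. Without the 4 libraries the changes were 1.17 ± 0.049 for Abhd1, -0.26 ± 0.027 for Atraid, 0.24 ± 0.032 for Mrpl33 and 2.996 ± 0.222 for Gm2420. Those libraries were picked by their low Abhd1, so the value for Abhd1 is no test of that gene. Gm2420 was low in them too, and Atraid and Mrpl33 lie in the same stretch as Abhd1. The values of these genes without the 4 libraries are therefore no separate support either. The cause of these differences was not tested.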

How the data were processed

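Cortical RNA of 48 mice was analysed. The authors deposited read counts per Ensembl gene, as whole numbers, and FPKM values (counts scaled by gene length and library total). Per the submitters' processing notes, the tools were STAR 2.7.5c, HTSeq 0.12.3 and SAMtools 1.10, on GRCm38 (mm10). Strand setting, annotation release and filters are not given in the sources used here. The 48 columns were each matched to 1 mouse by its label. No libraries of a group were copies: over 169 pairs, chi-square per degree of freedom was 4.71 to 37.2.

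Counts were tested in R 4.3.3 with edgeR 4.0.16: filterByExpr on genotype (20010 genes, with 99.963% of counts), TMM factors, 1 model of 6 genotypes and sex over all 48 mice, quasi-likelihood F-tests, and Benjamini-Hochberg adjustment over all genes tested, called under 0.05. CPM values are TMM-scaled, except in the 0.5 CPM minimum, which used library totals. Positions are from GENCODE M21, to which 48435 of 48795 identifiers were matched. Each mouse was taken as independent, so each p-value sets a difference between groups against the spread between these mice within groups.

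Members named in full were those called in any Q140 comparison, the next by p up to 10, the 2 nearest to Htt on each side, and the 2 highest and 2 lowest in FPKM. Tmem128, Preb, Rbks and others given with 1 value were named after their values were seen. Members, roles, lists and alternatives were chosen with earlier results of these data known. Lists of 10 cell types were examined in Q140 carriers against non-carriers only, and no marker was called there. Alternatives were RLE factors, other count filters, DESeq2 1.42.0, limma 3.58.1 (voom with quality weights, or log2 of FPKM plus 0.1 or 1), replicate number or column-name stem as a block, plate column, and leaving out libraries. Replicate numbers do not pair the mice: deviations of same-numbered mice had a mean correlation of -0.031 over 115 pairs, beside 0.004 for other pairs. For the 23 pairs of mice with the same column-name stem it was 0.043 (-0.02 to 0.11); the labels do not say what a stem marks. The script was tested on simulated data.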

Additional observations from a re-analysis of the deposited data

Results flagged for a closer look

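Of 102 groups of mice examined for the 17 members given in full, 9 held a mouse far from the rest of its group, where chance alone flags about 1 in 20 groups. Of the 9, 4 concern Q140 x Msh3-/- mice: male 4 was lowest for Slc5a6 at 18.19 CPM (others 19.88 to 21.04), for Nat8l at 412.1 CPM (others 496.5 to 548) and for Ppp2r2c at 656.8 CPM (others 690.4 to 718.3), and male 1 was highest for Rgs12 at 43.23 CPM (others 29 to 34.9). Msh3+/- male 2 was highest for Cgref1 at 12.21 CPM (others 6.60 to 9.04) and for Rgs12 at 43.06 CPM (others 27.9 to 33.1), and Msh3+/- female 1 was lowest for Slc5a6 at 17.84 CPM (others 20.2 to 21.4). Q140 male 1 was lowest for Ppp2r2c at 656.3 CPM (others 686.5 to 710.5). Q140 x Msh3+/- male 2, one of the libraries at the non-carriers' Abhd1 level, was highest for Acox3 at 54.33 CPM (others 50.4 to 51.9). Q140 x Msh3-/- male 4, Q140 male 1 and Msh3+/- male 2 are the mice that stood apart on the second principal component; whether the 2 observations share a cause was not tested.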

How the results depend on the processing

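In the 9 comparisons, 0 members were called under every alternative, with 2 exceptions in Q140 carriers against non-carriers. The count was 1 (Khk, 0.167, adjusted p = 0.0456) with limma, voom and sample quality weights. Leaving out each mouse in turn gave 0 to 1 called members, the 1 being Khk (0.168, adjusted p = 0.0479) without Q140 x Msh3-/- male 4. For 2 named members the estimate near 0 changed sign: Grk4 was 0.017 with plate column as a factor, and Nat8l was -0.001 without WT male 1; the cause was not tested. With the replicate block 0 members were called in each comparison, and since the replicate numbers do not pair the mice, this fit only shows that the block did not change the count. Over the 12 alternatives that leave out no single mouse, the carrier change stayed between 0.12 and 0.17 for Khk, -0.095 and -0.066 for Ppp1cb, and 0.12 and 0.18 for Cgref1. The count over all genes moved more: in Q140 carriers against non-carriers it was 7, with 4 to 13 over these alternatives (12 with DESeq2, 13 with limma and quality weights). It was 0 for Q140 x Msh3-/- against Msh3-/- (2 without the 4 libraries low in Abhd1, 5 with DESeq2, 12 with plate column), and 17 for 2 altered Msh3 alleles (11 to 37). It was 2 for Q140 against WT (1 to 3) and 3 for Q140 x Msh3+/- against Msh3+/- (1 to 5). Intervals were wide for Rbks, which had the widest, and for Msantd1 and the other members near 1 to 3 CPM. Wfs1, at a much higher level, had an interval about as wide as that of Grk4. The part of depth was not tested.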
